A study of Mus musculus with 6 samples.

Results

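Transcripts of 10 scavenger receptor genes were followed in BV2 cells, an immortalized mouse microglial line, with or without recombinant soluble TREM-1 (sTREM-1), the shed form of a myeloid receptor. The members were the rows of the gene count table whose symbol was Msr1, Colec12, Cd36, Scarb1, Marco, Olr1, Stab1, Cd68, Cd163 or Lrp1, and all 10 were found among 46095 rows. The CON group held 3 libraries of control BV2 cells, and the sTREM-1 group held 3 libraries of BV2 cells given 1 μg/mL of the protein for 6 h. Both groups came from the same line, no animal tissue was included, and nothing in the labels names a vehicle or a batch. The paper describes the control BV2 cells as untreated.

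Scavenger receptors are membrane proteins of unrelated folds that share an affinity for polyanionic or modified ligands, such as oxidized lipoproteins, apoptotic cells, bacterial surfaces and amyloid. They are grouped in classes by structure. Class A members are collagen-like trimers, class B members span the membrane at both ends and bind lipids, and the others carry mucin, lectin, fasciclin, cysteine-rich or lipoprotein receptor modules. On microglia they are best known for the uptake of amyloid, myelin debris and lipoproteins.

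Msr1, Scarb1, Stab1 and Lrp1 were higher after sTREM-1, Colec12 was lower, and Cd36, Cd68 and Marco did not pass the test. The rises were between 1.15-fold and 1.32-fold, and Colec12 fell to 0.781 of its CON level. Olr1 had too few reads to be tested and Cd163 had none. Of the 8 tested members, 4 were called higher and 1 lower at an adjusted p under 0.05 (quasi-likelihood F-test of edgeR, p-values adjusted by Benjamini-Hochberg over 14120 genes). Among all tested genes 16.5% were called higher and 14.1% lower. The median log2 fold change was 0.14 over the 8 tested members and -0.0017 over all tested genes. The CON and sTREM-1 libraries did not overlap for 5 members on the higher side and 1 on the lower side, where the background was 21.3% and 19.4% of all tested genes. In RNA from whole cultures, fewer cells with a transcript and less of it in each cell cannot be told apart.

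**Figure D1:**
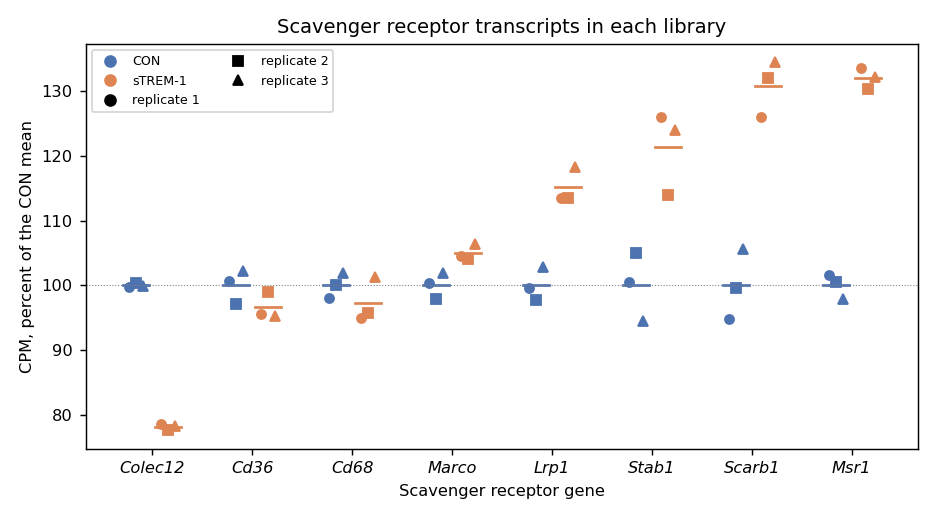
CPM (counts scaled to a common library size) of the 8 tested scavenger receptor genes in each of the 6 libraries, as a percent of the mean of the 3 CON libraries; points are libraries, shapes are replicate numbers and bars are group means. The 3 sTREM-1 points of Colec12 lie below its CON points, those of Marco, Lrp1, Stab1, Scarb1 and Msr1 lie above, and those of Cd36 and Cd68 overlap with CON.

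The libraries held between 40070633 and 45877107 counts, and TMM scaling factors stayed between 0.9906 and 1.007. Among 12 markers of microglia and macrophages, 11 were tested, of which 5 were called higher, 0 lower and 6 were not called. Over all tested genes 16.5% were called higher and 14.1% lower. The summed level of the 12 markers ran from 2466 to 2478 CPM in CON and from 2792 to 2821 CPM after sTREM-1. Most of that rise was in Csf1r, the receptor for macrophage growth factors. It had 521 ± 3.13 CPM in CON and 753 ± 20.5 CPM after sTREM-1 (SD, n = 3 each). The markers P2ry12, Tmem119 and Cx3cr1, which define resting microglia in brain, were under 2 CPM in both group means. At that low level Cx3cr1 was called higher, from 0.94 to 1.77 CPM (edgeR adjusted p = 0.0156), while P2ry12 and Tmem119 were not called. Aif1, a defining marker, was listed at 0 in all libraries. The summed levels of astrocyte, endothelial, fibroblast and oligodendrocyte markers did not exceed 7.84 CPM in any library, with Aqp4, Aldh1l1, Cldn5, Col1a2, Dcn and Mog at 0. The neuronal markers summed to between 30.9 and 31.5 CPM in CON and between 26.4 and 27.3 CPM after sTREM-1, nearly all of it Syn1, while Rbfox3 was at 0. Syn1 was itself called lower, with a log2 fold change of -0.21 (edgeR adjusted p = 0.00283). The part of these marker levels in the results of the members was not tested.

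To set the members side by side, CPM were divided by the exon length of each gene in kb. Cd68, which encodes a mucin-like glycoprotein of late endosomes and lysosomes, had the highest level, with 481 ± 9.06 CPM per kb in CON and 469 ± 16.7 after sTREM-1 (SD, n = 3 each, as for all group values here). It accounted for 62.3% ± 0.429 of the summed level of the 10 genes in CON and 61.5% ± 0.705 after sTREM-1. Cd36 followed with 100 ± 2.63 and 96.6 ± 2.09 CPM per kb, then Lrp1 with 76.5 ± 1.94 and 88.1 ± 2.11, and Colec12 with 66.6 ± 0.244 and 52.0 ± 0.325. Marco, Msr1, Scarb1 and Stab1 came next with 23.0 ± 0.471, 15.6 ± 0.296, 7.15 ± 0.390 and 1.96 ± 0.103 CPM per kb in CON. The order of these 8 genes was the same in both groups, and the libraries of neighbours in that order did not overlap. Among the 12788 tested genes matched to an exon length, Cd68 stood at percentile 99.7 by this measure, and Stab1 at percentile 27.1. The summed level of the members was 772 ± 11.96 CPM per kb in CON and 762 ± 18.4 after sTREM-1, so that the groups differed by less than their SDs. Within that sum the share of Lrp1 was 9.91% ± 0.148 in CON and 11.6% ± 0.0448 after sTREM-1, and the share of Colec12 was 8.62% ± 0.137 and 6.83% ± 0.167.

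**Figure D2:**
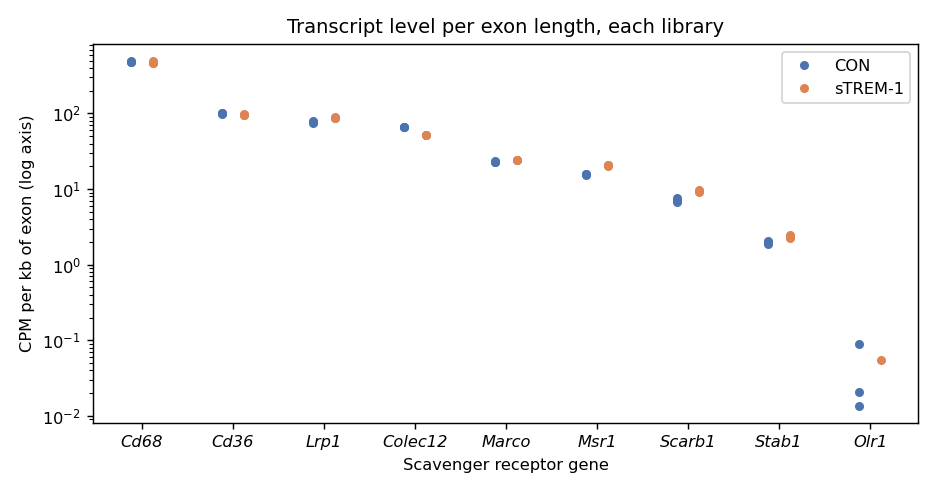
CPM per kb of exon on a log axis for the 9 members with any reads, from the highest to the lowest CON level, with a point for each library above 0. The levels run from 481 CPM per kb for Cd68 to 1.96 for Stab1 in CON, with Olr1 far below; Olr1 has no point for 2 sTREM-1 libraries and Cd163 none at all.

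The promoter windows of 3 members are shown, those of Lrp1 and Stab1, which were among the genes that rose, and that of Cd68, the most abundant member, which did not pass the test. RefSeq windows (GRCm38.p6) of 300 bases, from 250 before to 50 after the start site, were found for 7 of the 10 members, and not for Msr1, Colec12 and Scarb1. Each is printed on the strand of its gene, and capitals mark matches on either strand to GAGGAA (the core bound by PU.1, a myeloid transcription factor), TGANTCA (AP-1), GGGCGG (GC box), TCACNCCAC (sterol element) or ACGTG (hypoxia element).
Lrp1 (chr10:127621099-127621398, minus strand): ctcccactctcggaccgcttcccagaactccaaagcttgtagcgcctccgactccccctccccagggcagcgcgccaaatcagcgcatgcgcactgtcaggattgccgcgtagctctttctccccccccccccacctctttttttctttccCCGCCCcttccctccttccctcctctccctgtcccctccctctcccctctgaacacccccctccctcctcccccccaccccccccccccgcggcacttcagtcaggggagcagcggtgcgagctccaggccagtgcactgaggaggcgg
Stab1 (chr14:31168592-31168891, minus strand): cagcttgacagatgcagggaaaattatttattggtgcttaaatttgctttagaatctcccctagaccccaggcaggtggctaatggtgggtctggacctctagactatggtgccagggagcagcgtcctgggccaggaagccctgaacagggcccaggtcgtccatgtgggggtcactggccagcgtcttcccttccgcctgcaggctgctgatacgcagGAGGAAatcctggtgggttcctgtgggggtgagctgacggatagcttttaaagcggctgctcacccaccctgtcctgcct
Cd68 (chr11:69666121-69666420, minus strand): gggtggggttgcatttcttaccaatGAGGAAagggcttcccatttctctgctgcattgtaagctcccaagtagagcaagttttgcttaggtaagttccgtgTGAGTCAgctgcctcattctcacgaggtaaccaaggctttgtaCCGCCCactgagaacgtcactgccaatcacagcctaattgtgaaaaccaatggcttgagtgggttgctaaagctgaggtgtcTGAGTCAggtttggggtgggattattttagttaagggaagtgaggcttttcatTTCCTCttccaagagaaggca
The Lrp1 window held 67.7% G and C and a GC box match that begins 99 bases before the start site, and no other match. The Stab1 window held a PU.1 core 30 bases before the start site and no other match. The Cd68 window held 2 PU.1 cores, 2 AP-1 matches and 1 GC box match. Among the windows not shown, those of Marco and Olr1 each held 1 PU.1 core, and that of Olr1 also held 1 AP-1 match. The Cd36 window held 2 GC box matches and the Cd163 window 1 hypoxia element, with no other match in these windows. Among 32851 RefSeq windows of that length, 28.3% held a PU.1 core, 7.81% an AP-1 match, 35.7% a GC box, 1.24% a sterol element and 19.6% a hypoxia element. A match describes letters in these windows only, and binding was not measured. None of the matches overlapped another.

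In class A, Msr1 and Colec12 moved in opposite directions. Msr1, the founding macrophage scavenger receptor, binds acetylated and oxidized LDL and lies on chromosome 8 of GRCm38 from 39581685 to 39642673. It had 100, 99.2 and 96.6 CPM in CON replicates 1, 2 and 3 and 132, 129 and 130 CPM in sTREM-1 replicates 1, 2 and 3. Every sTREM-1 library lay above every CON library, and the log2 change was 0.40 (SE 0.03, edgeR adjusted p = 1.6e-11). The fold was 1.32, with a 95% interval from 1.26 to 1.38. Colec12, a collectin-type receptor with a collagen stem and a sugar-binding domain, lies on chromosome 18 from 9707595 to 9882644. It had 579, 583 and 580 CPM in the CON libraries and 456, 450.5 and 454 CPM in the sTREM-1 libraries. Its values varied by 0.367% (CV) among CON libraries, which is less than its counting error of 0.681%. Every sTREM-1 library lay far below the CON libraries. The log2 fold change was -0.36 (SE 0.02, edgeR adjusted p = 9.0e-14), and the 95% interval of the fold ran from 0.757 to 0.805.

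Since both genes were read in the same libraries, the ratio of their counts does not depend on scaling. The count of Msr1 per count of Colec12 was 0.173, 0.170 and 0.167 in the CON libraries and 0.289, 0.286 and 0.287 in the sTREM-1 libraries. This ratio was thus 1.69-fold higher after sTREM-1, a description only, since the pair was picked with the directions of both genes known. Marco, a collagenous receptor that binds bacteria and particles, lies on chromosome 1 from 120474538 to 120505024. It had 44.5, 43.4 and 45.2 CPM in CON and 46.3, 46.1 and 47.2 CPM after sTREM-1. All sTREM-1 values lay above all CON values, yet the gap was small and the gene did not pass the test (log2 fold change 0.07, SE 0.04, edgeR adjusted p = 0.253). The 95% interval of its fold, from 0.987 to 1.12, did not reach the rise of Msr1.

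Of the class B genes, Scarb1 rose and Cd36 did not pass the test. Scarb1, the HDL receptor through which cholesteryl esters enter and cholesterol leaves cells, lies on chromosome 5 from 125277087 to 125341094. It had 57.6, 60.6 and 64.2 CPM in the CON libraries and 76.6, 80.3 and 81.7 CPM in the sTREM-1 libraries. The groups did not overlap, and the log2 change was 0.39 (SE 0.04, edgeR adjusted p = 1.1e-08), a 1.31-fold rise with a 95% interval from 1.23 to 1.39. Cd36, a receptor for oxidized LDL, long-chain fatty acids and thrombospondin, lies on the same chromosome from 17781690 to 17888801. It had 361.5, 349 and 367 CPM in CON and 343, 355.5 and 342 CPM after sTREM-1, and the groups overlapped. Cd36 changed by -0.05 on the log2 scale (SE 0.03, edgeR adjusted p = 0.145), with a 95% interval of the fold from 0.932 to 1.00. Without CON replicate 2, Cd36 passed the threshold as lower, with a log2 fold change of -0.07 (edgeR adjusted p = 0.0459). The count of Cd36 per count of Scarb1 was 6.28, 5.76 and 5.72 in the CON libraries and 4.48, 4.43 and 4.19 in the sTREM-1 libraries, a ratio that changed 0.738-fold. The groups were fully apart in this ratio, as they were for Scarb1 alone, and this too is a description, since the directions of both genes were known.

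Lrp1 had the highest CPM of the members before division by length. It encodes a giant endocytic receptor of the lipoprotein receptor family that takes up apolipoprotein E particles, protease complexes and amyloid, and lies on chromosome 10 from 127538161 to 127621148. The CON libraries had 1349, 1325 and 1393 CPM, and the sTREM-1 libraries had 1539, 1539 and 1604 CPM. Each sTREM-1 value was above each CON value. The log2 fold change was 0.20 (SE 0.02, edgeR adjusted p = 8.2e-09), or 1.15-fold with a 95% interval from 1.12 to 1.19. It was the smallest rise of the called members. Its counts ran from 54348 to 70313 per library, so that counting error was 0.405%, against a spread of 2.54% (CV) among the CON libraries and 2.40% among the sTREM-1 libraries.

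Stab1, which encodes stabilin-1, an endocytic receptor of the fasciclin type that clears acetylated LDL and the matrix protein SPARC, lies on chromosome 14 from 31139013 to 31168641. It had 20.2, 21.1 and 19.0 CPM in CON and 25.4, 22.9 and 24.98 CPM after sTREM-1. The sTREM-1 libraries were all higher, with a log2 change of 0.28 (SE 0.07, edgeR adjusted p = 0.00146). The fold of 1.21 had a 95% interval from 1.11 to 1.33, the widest of the called members. Its exons share 112 bp with those of Nt5dc2 on the opposite strand, which is 1.09% of the Stab1 exon length and 4.71% of that of Nt5dc2. Nt5dc2 itself had 19.6 ± 1.78 CPM in CON and 32.9 ± 0.893 CPM after sTREM-1, with a log2 fold change of 0.74 (edgeR adjusted p = 1.2e-10). The strand used in counting is not given in the sources used here, and the part of these shared bases in the Stab1 counts was not tested.

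Cd68, on chromosome 11 from 69664213 to 69666153, is widely used to stain activated microglia. It had 594, 606 and 616 CPM in the CON libraries and 575, 579 and 613 CPM in the sTREM-1 libraries. The groups overlapped through sTREM-1 replicate 3. Cd68 changed by -0.04 on the log2 scale (SE 0.02, edgeR adjusted p = 0.249), and the 95% interval of the fold ran from 0.940 to 1.01, so that a rise as large as that of Lrp1 lay outside it. In the fit that left out sTREM-1 replicate 3, Cd68 changed by -0.07 on the log2 scale and passed the threshold (edgeR adjusted p = 0.0183).

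Olr1, the lectin-like receptor LOX-1 for oxidized LDL on chromosome 6 from 129485244 to 129507165, had 3, 13 and 2 counts in CON and 9, 0 and 0 counts after sTREM-1. These reads were spread unevenly within groups and the gene did not pass the filter on low counts. When the filter was lifted, its log2 fold change was -1.07 with an edgeR adjusted p of 0.58. Cd163, the hemoglobin-haptoglobin receptor of tissue macrophages on chromosome 6 from 124304656 to 124330527, had 0 counts in all 6 libraries. A count of 0 allows up to 3 counts per library, which is a level of up to 0.0756 CPM in the smallest library, counting error only. That limit holds only if reads of the gene were counted at all, and a loss of its reads in the counting was not tested, as for the marker Aif1, also listed at 0. No difference between the groups was detectable for either gene in these counts.

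**Figure D3:**
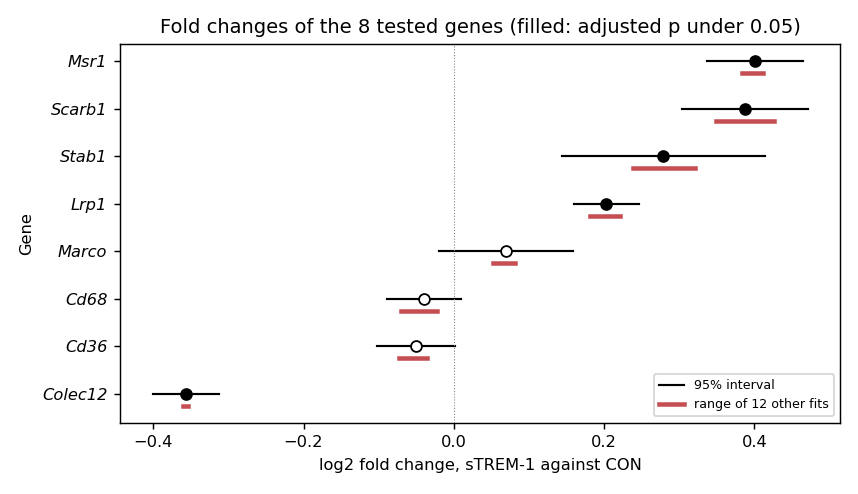
Log2 fold change of sTREM-1 against CON for the 8 tested members, with its 95% interval in black, filled where the adjusted p is under 0.05, and below it in red the range over the 12 other fits. Msr1, Scarb1, Stab1 and Lrp1 lie right of 0 from 0.40 to 0.20, Colec12 lies left at -0.36, and the intervals of Marco, Cd68 and Cd36 include 0.

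Genes with a like pattern were looked up for the members of largest rise and fall, by the Euclidean distance between the 6 log2 ratios to the CON mean. The tested genes nearest to Msr1 were Lgals9, which encodes galectin-9, Acsl5, a long-chain acyl-CoA synthetase, and Tlr2, a receptor for bacterial lipoproteins, at distances of 0.03, 0.04 and 0.05. Lgals9 had 80.9 ± 0.573 CPM in CON and 107 ± 2.40 CPM after sTREM-1. The genes nearest to Colec12 were Atp8b4, a lipid-transporting ATPase, Hnrnpk, an RNA-binding protein, and Tma16, at distances of 0.04, 0.05 and 0.06. Atp8b4 had 304 ± 2.995 CPM in CON and 237 ± 4.16 CPM after sTREM-1.

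Of 17 further scavenger receptors and related pattern receptors, 16 were in the table and 10 were tested. Of those 10, 1 was called higher and 2 lower, where the shares among all tested genes were 16.5% and 14.1%. The median log2 fold change of the 10 was -0.08. Clec7a, which encodes the beta-glucan receptor dectin-1, rose from 21.3 ± 0.703 to 28.0 ± 1.26 CPM, a log2 fold change of 0.39 (edgeR adjusted p = 7.6e-06). Cd44, the hyaluronan receptor, fell from 383 ± 1.07 to 346 ± 6.89 CPM, a log2 fold change of -0.15 (edgeR adjusted p = 1.5e-05). Cd14, the co-receptor for lipopolysaccharide, fell from 356 ± 11.5 to 328 ± 9.48 CPM, a log2 fold change of -0.12 (edgeR adjusted p = 0.000818). Scarb2, the lysosomal class B receptor, had 90.1 ± 2.35 and 93.7 ± 1.51 CPM and did not pass (edgeR adjusted p = 0.229). Asgr1, Scarf2 and Ager were at 0 in all libraries.

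The relatives and chaperones of Lrp1 that were called were all higher. Of 20 genes of the lipoprotein receptor family, its chaperones and its regulators, 14 were tested. Of these 7 were called higher, 0 lower and 7 were not called, where 16.5% of all tested genes were called higher and 14.1% lower. The median log2 fold change of the tested genes of this list was 0.05. Sorl1, a sorting receptor for the amyloid precursor protein, rose from 51.3 ± 1.11 to 67.3 ± 0.128 CPM, with a log2 fold change of 0.39. Lrp8, a receptor for apolipoprotein E and reelin, and Ldlrad3 had log2 fold changes of 0.35 and 0.25. Lrpap1, the chaperone that keeps ligands off newly made Lrp1, falls outside the naming rule and was picked with its values in view. It had 530 ± 0.733 CPM in CON and 568 ± 9.79 CPM after sTREM-1, a log2 fold change of 0.10 (edgeR adjusted p = 0.000779). Lrp5 and Lrp6, the Wnt co-receptors, did not pass, with log2 fold changes of -0.04 and -0.03.

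Among 20 ligands of these receptors, 15 were tested, 11 were called higher, 3 were called lower, and the median log2 fold change was 0.19. The shares over all tested genes were 16.5% higher and 14.1% lower. Lpl, the lipoprotein lipase that also bridges lipoproteins to Lrp1, rose from 2610.0 ± 102.5 to 3345 ± 92.0 CPM, a log2 fold change of 0.36 (edgeR adjusted p = 1.3e-13). Apoe, the main apolipoprotein of microglia, rose from 1630 ± 0.699 to 1856 ± 38.1 CPM, a log2 fold change of 0.19 (edgeR adjusted p = 3.9e-09). Anxa1 and C1qb, of annexin A1 and complement C1q, had log2 fold changes of 0.50 and 0.27. Thbs1, which encodes the Cd36 ligand thrombospondin-1, fell from 9.39 ± 0.680 to 5.62 ± 0.894 CPM, a log2 fold change of -0.74 (edgeR adjusted p = 8.1e-06). Plau and Mmp9, proteases whose complexes are cleared by Lrp1, had log2 fold changes of -0.18 and -0.20 and were called lower.

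The 20 adaptors and transcription factors linked to these receptors were mixed. Of 17 tested, 4 were called higher and 6 lower, where 16.5% and 14.1% of all tested genes were. The median change of the 17 was 0.02 on the log2 scale. Among kinases that act below scavenger receptors, Fyn and Lyn, of the Src family, fell with log2 fold changes of -0.33 and -0.21 (edgeR adjusted p = 1.7e-07 and 1.2e-06), while Syk rose by 0.21 (edgeR adjusted p = 1.7e-07). Vav1, a guanine nucleotide exchange factor for Rac, and Cebpb, a myeloid transcription factor, also fell, with log2 fold changes of -0.12 and -0.25. Stat6, Nr1h2, which encodes the oxysterol receptor LXR-beta, and Irf8 rose, with log2 fold changes of 0.20, 0.25 and 0.11. Spi1, which encodes PU.1, had 124 ± 1.19 CPM in CON and 130 ± 4.21 CPM after sTREM-1 and did not pass (edgeR adjusted p = 0.0794). Pparg, the nuclear receptor known to drive Cd36, had 0.196 and 0.259 CPM in the group means and did not pass (edgeR adjusted p = 0.669).

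**Figure D4:**
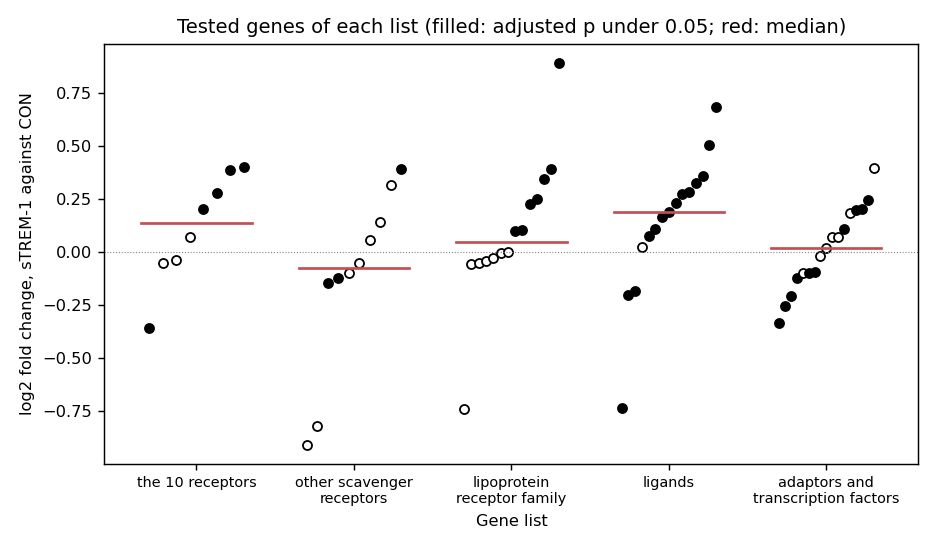
Log2 fold change of every tested gene in each list, filled where the adjusted p is under 0.05, with the median of the list in red. Called genes of the lipoprotein receptor family lie above 0, the ligands have a median of 0.19, and the other lists hold called genes on both sides of 0.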

How the data were processed

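RNA of BV2 cells was sequenced in 3 CON and 3 sTREM-1 libraries, numbered 1 to 3 in the labels. The methods give n = 4 and the labels 3 per group. The values deposited by the authors are raw counts, whole numbers for each gene symbol, and the step that made this table is not given in the sources used here. The methods name FastQC for the reads and RSEM with FPKM for transcript expression. The submitters' processing notes name HISAT2 2.0.4 and the human builds hg19 and GRCh38, although the symbols of the table are those of mouse genes. The mouse build, annotation and strand are not given in the sources used here. The files do not say how the mouse reads met those builds, so that reads shared by overlapping or similar genes have an unknown fate.

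Genes were filtered with filterByExpr (minimum count 10), which left 14120. Libraries were scaled by TMM, and the groups were compared by the quasi-likelihood F-test in edgeR 4.0.16 (R 4.3.3) without covariates. The calling threshold was an adjusted p (Benjamini-Hochberg) under 0.05. Intervals of folds use the t distribution of that test. CPM are counts over TMM-scaled library sizes. Exon lengths and coordinates come from GENCODE M21 (GRCm38), matched by symbol for 90.57% of tested genes, and joined exons overstate the length of genes with rarely used exons. Counts within a group were further apart than sampling noise (chi-square per gene from 3.45 to 4.99), so that no library looked like a second deposit of another, and each was used as labelled. For single genes the SD of 3 libraries could fall below counting error, as in CON for Apoe and Lrpap1 and after sTREM-1 for Sorl1. The labels speak of wells of a plate and not of cultures kept apart before seeding, so that p-values measure only the spread between these libraries, which may be technical.

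The members and lists were chosen with earlier results of these data known. Named genes are the 10 members, at most 4 per list and direction with the smallest adjusted p under 0.05, and the 3 genes nearest in pattern to the members of largest rise and fall; others were named after their values were seen. A gene that meets this rule is not reported here. Alternatives were RLE factors, 2 other filters, DESeq2 1.42.0, the exact test in edgeR, blocking on the replicate number, fits without each library and 2 other thresholds. The smallest library held 40070633 counts, and among the members low counts limit Olr1, while whether reads of Cd163 could be counted is not known.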

Additional observations from a re-analysis of the deposited data

How the results depend on the processing

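In all 12 other fits (RLE factors, no filter, at least 10 counts in every library, DESeq2, edgeR's exact test, the replicate block and 6 fits without a library), Msr1, Scarb1, Stab1, Lrp1 and Colec12 kept their direction and stayed called, with adjusted p-values of at most 0.0181. The number of members called higher stayed at 4 in each, and was 3 at a minimum change of 1.2-fold. The number of members called lower was 1, and ran from 1 to 2 across the 6 fits without a library. At a minimum change of 1.2-fold in either direction, 1 of 10 further scavenger receptors and 3 of 14 lipoprotein receptor family genes were called. So were 7 of 15 listed ligands and 1 of 17 adaptors or transcription factors, out of the tested genes of each list. That threshold removes small changes. The share of all tested genes that pass it was not computed, so that these counts and the 3 members have no background to be read against. Marco was called in 0 of the 12 fits. Libraries with the same number deviated from their groups with a correlation between -0.033 and -0.014 across genes, and 0 libraries correlated best with their own number. With the replicate block 4613 genes were called against 4312 without it, and among the members 4 were higher and 1 lower, as without it. Few counts limit Olr1, which had at most 13 in any library, and whether the 0 of Cd163 reflects depth or a loss in the counting was not tested.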
